A study of Mus musculus with 6 samples.

Results

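The genes described here are 9 components of bone morphogenetic protein (BMP) signalling, chosen by name: the ligand gene Bmp4, the receptor genes Bmpr1a and Bmpr2, the Smad genes Smad1, Smad5 and Smad6, and the target genes Id1, Id2 and Id3. All 9 were among the 23337 gene symbols counted in each library, and all 9 were among the 12899 genes that passed a filter on low counts. The libraries were made from alveolar type II (AT2) cells of mouse lung, the surfactant-making epithelial cells of the alveolus. The 3 mutant libraries came from SpC-CreER/Dlk1flox/ROSA-Tomato mice and the 3 wild-type libraries from SpC-CreER/ROSA-Tomato mice. Both groups therefore carried a Cre recombinase fused to an oestrogen receptor domain driven by the promoter of surfactant protein C, together with a Tomato reporter, and both were taken 10 days after acute lung injury with Pseudomonas aeruginosa. The mutant group carried in addition the floxed allele of Dlk1, which encodes a membrane protein related to Notch ligands, so that deletion would be limited to cells that express the surfactant protein C promoter and to progeny of such cells. The cells were sorted by flow cytometry for Tomato. One label also mentions 8 days of culture, and the labels do not settle if culture came between sorting and RNA isolation. Ages are not given in the labels.

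BMP ligands bind a complex of type I and type II receptor kinases. The type I receptor then phosphorylates the receptor-regulated Smads (Smad1, Smad5 and Smad9), which pair with Smad4 and enter the nucleus. Id genes are classical direct targets: they encode helix-loop-helix proteins that lack a DNA-binding region and hold the E proteins in inactive dimers. Smad6, an inhibitory Smad, is itself induced by BMP and feeds back on the receptors. In the lung, BMP4 is known for its part in distal airway patterning during development and BMP signalling for its effects on the renewal and differentiation of AT2 cells.

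Library totals ran from 23718958 to 30695994 counts in the mutant and from 22511461 to 25332204 counts in the wild-type group. The Sftpc level, the marker that defines AT2 cells, was 45223 to 49108 CPM (counts-per-million of the library total) in the mutants and 49912 to 54195 CPM in the wild types. Every mutant library was thus below every wild type for Sftpc, as for 6.43% of all tested genes in TMM-normalised CPM. The sum over 10 AT2 markers, Sftpc among them, overlapped between groups. It was 127671 to 140420 CPM in the mutants and 136505 to 158599 CPM in the wild types. Dlk1 itself had 2, 0 and 0 counts in mutants 1, 2 and 3, against 2, 0 and 2 in wild types 1, 2 and 3. These counts lie under the 3 counts that a count of 0 allows, so the targeted gene did not check the labels. Mutant 1 stood apart by markers of other cells. Its sum over 10 endothelial markers was 147 CPM, against 16.5 to 24.1 CPM in the other 5 libraries, and its sum over 10 fibroblast markers was 446 CPM, against 7.30 to 18.1 CPM. Its sum over 9 leukocyte markers (Lyz2 left out, since AT2 cells express it) was 509.5 CPM, against 9.99 to 37.8 CPM. The largest difference in CPM was in 8 club and ciliated cell markers, which summed to 8998 CPM in mutant 1, against 549 to 864 CPM in the others. Mutant 1 also had the highest mesothelial sum, at 56.1 against 0.84 to 5.84 CPM over 4 markers, and the highest smooth muscle and pericyte sum, at 27.7 against 1.91 to 3.21 CPM over 8 markers. Endothelial cells and fibroblasts also express BMP receptors and Id genes, so the fold change of each member is given with mutant 1 and without it. In such bulk samples, fewer cells of a type and less RNA per cell cannot be told apart.

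The regulatory letters just before the start sites of 3 BMP-induced members are shown because these genes are read here as target genes. RefSeq windows on GRCm38.p6 were available for 8 of the 9 members, all but Id1. The 250 bases before the start are printed 5′ to 3′ on the gene's strand, in lower case. Capitals mark GGCGCC (the same letters on both strands) and GGAGCC, both of them GC-rich letters of the kind that Smad1 and Smad5 bind, and GTCT, the short Smad box, each searched on both strands. None of the marked matches overlap. The windows lie at chr12:25096093-25096342 (minus strand) for Id2, chr4:136143572-136143821 (plus strand) for Id3 and chr9:64022060-64022309 (minus strand) for Smad6.
Id2: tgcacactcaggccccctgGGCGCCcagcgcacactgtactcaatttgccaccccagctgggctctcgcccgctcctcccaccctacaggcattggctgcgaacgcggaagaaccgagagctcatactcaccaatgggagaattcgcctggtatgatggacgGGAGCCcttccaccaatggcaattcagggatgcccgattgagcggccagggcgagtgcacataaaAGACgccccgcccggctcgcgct
Id3: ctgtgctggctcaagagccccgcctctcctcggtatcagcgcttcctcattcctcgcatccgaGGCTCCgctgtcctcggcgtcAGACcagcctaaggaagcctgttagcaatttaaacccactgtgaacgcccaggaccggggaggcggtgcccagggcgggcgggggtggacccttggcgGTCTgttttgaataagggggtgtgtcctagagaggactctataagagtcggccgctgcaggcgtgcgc
Smad6: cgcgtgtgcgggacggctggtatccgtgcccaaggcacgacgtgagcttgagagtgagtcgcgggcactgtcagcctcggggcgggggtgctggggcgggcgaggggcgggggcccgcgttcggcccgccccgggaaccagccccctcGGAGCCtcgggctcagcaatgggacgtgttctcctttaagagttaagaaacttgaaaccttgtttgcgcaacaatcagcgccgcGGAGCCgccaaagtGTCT

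The Id2 window held 1 GGCGCC, 1 GGAGCC and 1 GTCT. The Id3 window held 1 GGAGCC and 2 GTCT, and the Smad6 window 2 GGAGCC and 1 GTCT. Over 32536 distinct RefSeq windows of the same length, 9.65% held GGCGCC, 26.1% held GGAGCC and 82.9% held GTCT, so the Smad box letters are common in windows of this length. The spaced form GGCGCC with GTCT after 5 further bases, known as a BMP-responsive element, was in 0.0707% of windows and in none of the 3 printed. Windows of members not printed here held such letters as well. The Bmp4 window held 1 GGAGCC and 1 GTCT, and the Bmpr1a and Bmpr2 windows 1 GGCGCC each. A Smad5 window held 1 GGAGCC and 2 GTCT, and another 1 GGCGCC and 1 GTCT, whereas the Smad1 window held none of these letters. Such matches describe the letters and are not shown to be bound.

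Per kilobase of annotated exon, the members covered a wide range of levels, with Id2 on top and Bmpr2 at the bottom. Id2 stood at 132 ± 22.3 CPM per kilobase in the mutant and 135 ± 6.96 CPM per kilobase in the wild types (mean ± SD over 3 libraries, as for the levels that follow). Bmp4 came next at 65.3 ± 1.93 CPM per kilobase in the mutant and 56.8 ± 9.63 CPM per kilobase in the wild-type libraries. Bmpr1a followed at 23.8 ± 4.39 CPM per kilobase in the mutant and 25.3 ± 1.74 CPM per kilobase in the wild-type libraries. Over the 6 libraries, the ranges of these first 3 genes did not touch each other or that of Id1. Id1, at 16.9 ± 1.46 CPM per kilobase in the mutant and 12.001 ± 2.42 CPM per kilobase in the wild-type libraries, overlapped Smad5, at 11.8 ± 0.45 and 11.97 ± 0.21 CPM per kilobase in mutant and wild-type libraries. Smad1 (5.16 ± 0.82 in the mutant and 5.27 ± 0.47 CPM per kilobase in the wild-type libraries), Smad6 (4.14 ± 0.22 in the mutant and 4.90 ± 1.16 CPM per kilobase in the wild-type libraries) and Id3 (4.93 ± 1.33 in the mutant and 3.37 ± 0.74 CPM per kilobase in the wild-type libraries) overlapped their neighbours in this order. Bmpr2, at 2.55 ± 0.13 CPM per kilobase in the mutant and 2.53 ± 0.32 CPM per kilobase in the wild-type libraries, overlapped Id3 and not Smad6 or Smad1. Exon lengths came from GENCODE on GRCm38 and not from the annotation used for counting. They count every annotated exon, which places genes with long alternative ends, such as Bmpr2 with 17983 bases, low in this order.

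**Figure D1:**
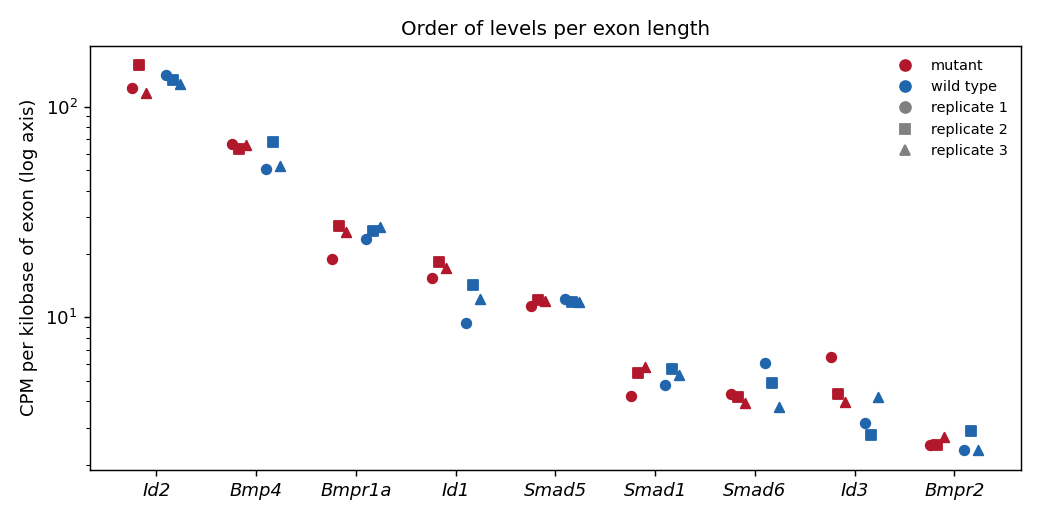
TMM-normalised CPM per kilobase of annotated exon (log axis) for the 9 genes, ordered by their mean over the 6 libraries. Mutant points are red, wild-type points are blue, and the shape gives the replicate. Id2, Bmp4 and Bmpr1a are separated from each other and from the rest, while Smad1, Smad6 and Id3 overlap.

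Mutant cells were compared with wild-type cells to ask whether the floxed Dlk1 allele went with other levels of BMP pathway transcripts 10 days after injury. Id1 averaged 1.41-fold higher in the mutant group, with each mutant library above every wild-type library. Id3 averaged 1.46-fold higher, with overlapping groups and its highest value in mutant 1. Bmp4 averaged 1.15-fold higher and Smad6 0.846-fold, both with overlapping groups, and the 2 receptors, Smad1, Smad5 and Id2 had folds of 0.941 to 1.01. None of the 9 genes passed edgeR's quasi-likelihood test at a Benjamini-Hochberg adjusted p of 5%, where 0% of the 12899 tested genes passed (849 genes had an unadjusted p under 0.05). DESeq2 also called none of the 9, where it called 38 genes or 0.295% of those tested.

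**Figure D2:**
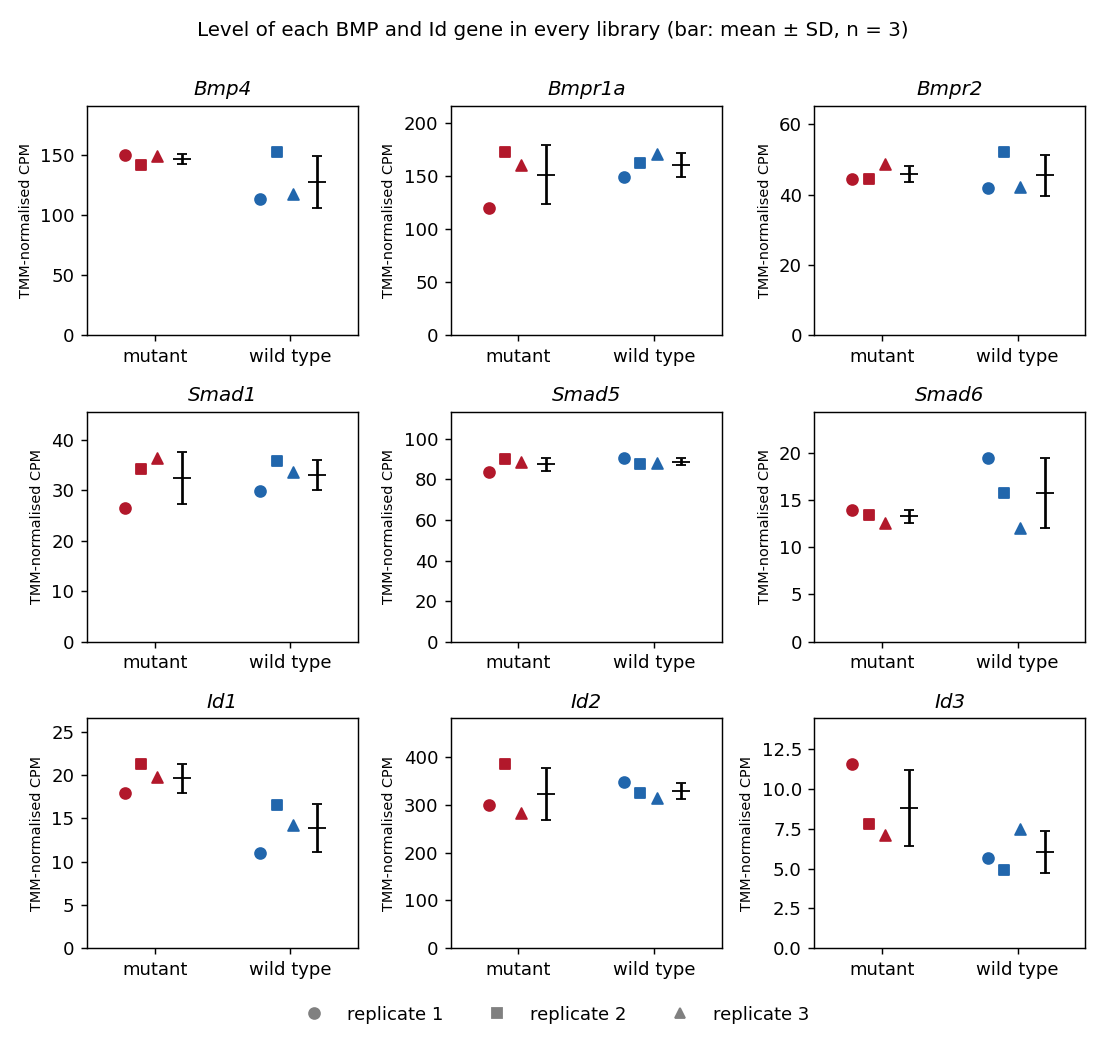
TMM-normalised CPM of each of the 9 genes in every library, mutant (red) left and wild type (blue) right, with each y axis starting at 0. Bars give the mean ± SD of 3 libraries. Id1 is the gene whose 3 mutant points (17.9 to 21.3) lie above all 3 wild-type points (10.97 to 16.5).

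Bmp4, the ligand of the set, had 149.7, 142 and 149 TMM-normalised CPM in mutants 1, 2 and 3, against 113, 153 and 117 CPM in wild types 1, 2 and 3. The mutant libraries lay close together, and wild type 2 stood above all of them while wild types 1 and 3 stood below. The log2 fold change was 0.20 ± 0.12 (SE), with a 95% interval of -0.09 to 0.48 and an edgeR adjusted p of 0.75. Without mutant 1 it was 0.19, so this library did not set the value, whereas without wild type 2 it was 0.34.

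Bmpr1a encodes a type I receptor that phosphorylates Smad1 and Smad5. Its level was 119.9, 173 and 161 CPM in mutants 1, 2 and 3, against 149, 163 and 171 CPM in wild types 1, 2 and 3. Mutant 1 was the lowest library and the other 5 were intermixed. The log2 fold change was -0.09 with an interval of -0.42 to 0.24, and it was 0.06 (-0.17 to 0.28) without mutant 1. Bmpr2, the type II receptor that activates Bmpr1a, had 44.4, 44.5 and 48.6 CPM in mutants 1, 2 and 3, against 42.0, 52.2 and 42.2 CPM in wild types 1, 2 and 3. All mutant values fell inside the wild-type range. Its log2 fold change was 0.01, with an interval of -0.25 to 0.27 that reaches from 0.843-fold to 1.21-fold, and it was 0.03 without mutant 1.

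Smad5 was the most even member across libraries. It had 83.7, 89.9 and 88.6 CPM in mutants 1, 2 and 3, against 90.6, 87.8 and 88.1 CPM in wild types 1, 2 and 3, and its log2 fold change was -0.02 ± 0.07 (SE), with an interval from 0.883-fold to 1.097-fold. Smad1, its close paralog with the same role, had 26.6, 34.1 and 36.4 CPM in mutants 1, 2 and 3, against 29.9, 35.7 and 33.5 CPM in wild types 1, 2 and 3. For both genes mutant 1 was the lowest library and the groups overlapped. The log2 fold change of Smad5 was 0.01 without mutant 1. That of Smad1 was -0.03 (-0.36 to 0.29) with all libraries and 0.09 (-0.17 to 0.36) without mutant 1. The sources used here do not say how reads shared between paralogs were counted. Smad5 had 2.44 to 3.15 counts for each Smad1 count in the mutant libraries, and 2.46 to 3.03 in the wild-type libraries.

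Smad6, the inhibitory Smad, had 13.9, 13.3 and 12.5 CPM in mutants 1, 2 and 3, against 19.4, 15.7 and 11.97 CPM in wild types 1, 2 and 3. The 3 mutant libraries lay within a narrow band that wild type 3 undercut and wild types 1 and 2 exceeded. The log2 fold change was -0.24 ± 0.18 (SE) with an interval of -0.67 to 0.19 and an edgeR adjusted p of 0.79. It moved with single wild-type libraries, to -0.06 without wild type 1 and -0.41 without wild type 3, and was -0.28 without mutant 1.

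Id1 had 17.9, 21.3 and 19.8 CPM in mutants 1, 2 and 3, against 10.97, 16.5 and 14.3 CPM in wild types 1, 2 and 3. The 2 groups did not overlap, and the gap between the lowest mutant and the highest wild-type library, 17.9 against 16.5 CPM, was smaller than the spread within the wild-type group. These levels rest on 587, 497 and 562 counts in mutants 1, 2 and 3, against 240, 413 and 350 in wild types 1, 2 and 3. The log2 fold change was 0.50 ± 0.17 (SE), with a 95% interval from 1.08-fold to 1.85-fold. Its edgeR p was 0.0193 unadjusted and 0.737 after adjustment over all tested genes, so Id1 did not pass. Id1 was the only member of the 9 with an unadjusted p under 0.05 or with groups apart. Of all tested genes, 6.58% had such a p (3.69% with a higher mutant level), and 5.23% had every mutant library above every wild-type library, so 1 of 9 is not a result about the members.

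Mutant 1 was the lowest of the 3 mutant libraries for Id1, and without it the log2 fold change was 0.56 (0.14 to 0.98, edgeR adjusted p = 0.819). Without wild type 1, the lowest library for Id1, the log2 fold change was 0.35 (edgeR adjusted p = 0.914). Endothelial markers summed to 16.5 and 24.1 CPM in mutants 2 and 3, against 18.6, 16.6 and 17.2 CPM in wild types 1, 2 and 3. Pecam1, a defining endothelial gene, stood at 22.8, 2.02 and 1.34 CPM in mutants 1, 2 and 3, against 1.42, 1.07 and 1.16 CPM in wild types 1, 2 and 3. Across these markers, 2 of 10 were above every wild-type library in both mutant 2 and mutant 3, as were 11.1% of all tested genes in TMM-normalised CPM. Fibroblast markers summed to 13.3 and 18.1 CPM in mutants 2 and 3, against 8.84, 7.30 and 11.03 CPM in wild types 1, 2 and 3, with Lum and Tcf21 at 0 in all 5. Fn1 alone, 1 of 10 fibroblast markers, was above every wild-type library in both mutants, at 9.53 and 13.9 CPM in mutants 2 and 3, against 4.89, 3.39 and 3.33 CPM in wild types 1, 2 and 3. The other 9 fibroblast markers summed to 3.79 and 4.16 CPM in mutants 2 and 3, against 3.95, 3.91 and 7.70 CPM in wild types 1, 2 and 3. AT1 markers summed to 3415, 3681 and 3806 CPM in mutants 1, 2 and 3, against 3447, 3150 and 3558 CPM in wild types 1, 2 and 3. By CPM of the library total, 6 of these 10 markers (Ager, Rtkn2, Clic5, Cav1, Emp2 and Akap5) were above every wild-type library in both mutant 2 and mutant 3, and 3 of them also in mutant 1. Margins were narrow for Clic5 in mutant 2 (227.6 against 224.8 CPM in wild type 1) and Emp2 in mutant 1 (663.6 against 662.8 CPM in wild type 3). Division by the TMM factors of mutant 2 (0.986) and wild type 1 (0.972) put Clic5 in mutant 2 just below wild type 1. Likewise, the factors of mutant 1 (1.07) and wild type 3 (0.986) put Emp2 in mutant 1 below wild type 3. Both of these counts of AT1 markers were therefore lower in TMM-normalised CPM. The part of these cells in the Id1 values was not tested.

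Id3 had 11.6, 7.79 and 7.12 CPM in mutants 1, 2 and 3, against 5.67, 4.93 and 7.49 CPM in wild types 1, 2 and 3. Mutant 1 stood above the rest and wild type 3 lay above mutant 3, so the groups overlapped. The log2 fold change was 0.55 ± 0.27 (SE), from 0.948-fold to 2.26-fold, with an edgeR adjusted p of 0.739. It was 0.31 (-0.24 to 0.85) without mutant 1, the library with high club and ciliated, endothelial, fibroblast, leukocyte, mesothelial and smooth muscle markers. The part of those cells in the Id3 value was not tested.

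Id2, the most abundant member, had 298, 384 and 284 CPM in mutants 1, 2 and 3, against 347, 325 and 314 CPM in wild types 1, 2 and 3. The mutant libraries held both the highest and the lowest values. Its log2 fold change was -0.03 with an interval of -0.33 to 0.27, and 0.02 (-0.29 to 0.34) without mutant 1. Id2 made up 91.0% to 93.0% of the counts of the 3 Id genes in the mutant libraries and 93.5% to 95.4% in the wild-type libraries. These ranges did not overlap, but the share falls as Id1 and Id3 counts rise, so it is not a separate result about Id2.

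**Figure D3:**
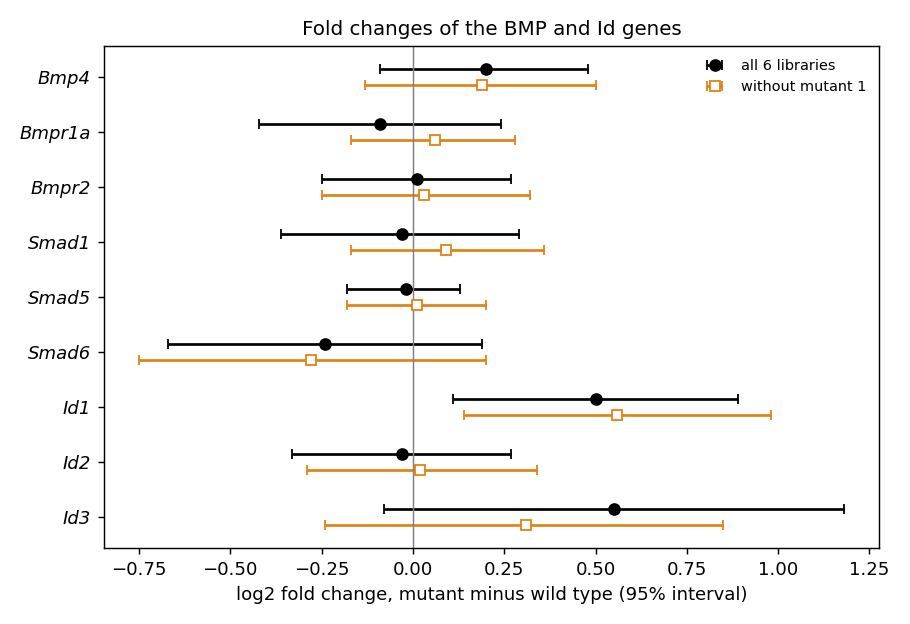
Log2 fold changes (mutant minus wild type) of the 9 genes with 95% intervals derived from edgeR's quasi-likelihood fit. Black points use all 6 libraries and orange points leave out mutant 1. Only the intervals of Id1 leave out 0, before adjustment for the number of genes tested, and those of Smad5 are the narrowest with all libraries.

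The 9 log2 fold changes had a median of -0.02, with 4 above and 5 below 0, where the median over all tested genes was 0.005. Without mutant 1 the members' median was 0.06 and that of all tested genes -0.009.

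The other genes of the pathway were taken as 6 lists of 75 genes by role. Of these, 45 passed the filter and 30 did not, and 8 had no count in any library. In edgeR, 0 of the 45 tested genes passed the adjusted threshold, and the lowest adjusted p was 0.737. An unadjusted edgeR p under 0.05 was found for 7 of 45, where 6.58% of all tested genes had one. This count moved with mutant 1. Without that library, the p of Acvrl1, Bmpr1b, Fstl1, Runx2 and Tcf4 was 0.167 to 0.39. Nbl1 (0.00964) and Fkbp1a (0.0484) stayed under 0.05, and Htra1 (0.0344) and Smad7 (0.0387) came under it. Of the 12954 genes tested without mutant 1, 390 had such a p with a higher and 368 with a lower mutant level. Every mutant library was above every wild-type library for 3 of the 45 genes (5.23% of all tested genes) and below for 4 (6.43% of all tested genes).

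Means of these genes are given with the SD over 3 libraries. Among ligands, 4 of 13 genes were tested and none passed, with 2 log2 fold changes above and 2 below 0. Bmp2, which shares receptors with Bmp4, had 20.1, 24.9 and 24.7 CPM in mutants 1, 2 and 3, against 13.3, 26.0 and 22.4 CPM in wild types 1, 2 and 3. Wild type 1 was the lowest library for Bmp2, as it was for Bmp4 and Id1. Bmp5 averaged 59.4 ± 11.1 CPM over the mutants and 64.1 ± 7.32 CPM over the wild types, Bmp3 41.6 ± 3.58 CPM over the mutants and 46.5 ± 7.85 CPM over the wild types, and Gdf5 4.17 ± 0.54 CPM over the mutants and 3.36 ± 1.34 CPM over the wild types.

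Among receptors and co-receptors, 8 of 9 genes were tested and none passed. Bmpr1b, a type I receptor, had 139, 32 and 47 counts in mutants 1, 2 and 3, against 18, 30 and 6 counts in wild types 1, 2 and 3. Its groups did not overlap in CPM. It averaged 3.196-fold higher with all libraries (log2 1.68 ± 0.70, SE) and 1.998-fold higher without mutant 1, with a log2 interval there of -0.54 to 2.53. Acvr2b, an activin and BMP type II receptor, averaged 4.94 ± 0.30 CPM over the mutants and 6.27 ± 0.79 CPM over the wild types, and the co-receptor gene Rgmb 35.3 ± 1.93 CPM over the mutants and 39.1 ± 0.73 CPM over the wild types. Both had every mutant library below every wild-type library, with log2 fold changes of -0.34 and -0.15. Acvrl1 and Eng, which endothelial cells express strongly, had 309 counts each in mutant 1 and at most 28 and 20 counts in the other 5 libraries, beside the endothelial sum of 147 CPM in mutant 1. The part of endothelial cells in these counts was not tested.

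Among secreted antagonists and modulators, 8 of 19 genes were tested, 7 with a log2 fold change above 0, and none passed. The antagonist genes Nog, Cer1, Sostdc1 and Chrdl2 had 0 counts in all 6 libraries, which allows up to 0.0977 to 0.133 CPM per library. Nbl1, a secreted BMP antagonist of the DAN family, had 11.5, 5.39 and 5.64 CPM in mutants 1, 2 and 3, against 2.92, 3.36 and 3.05 CPM in wild types 1, 2 and 3. The groups were apart with mutant 1 and without it, with log2 fold changes of 1.27 ± 0.35 (SE) and 0.82, and the edgeR adjusted p was 0.737 with all libraries and 0.819 without mutant 1. Of the fibroblast markers, Fn1 was likewise above the wild types in mutants 2 and 3. The other 9 summed to 3.79 and 4.16 CPM in mutants 2 and 3, against 3.91 to 7.70 CPM in the wild types. The part of fibroblasts in the Nbl1 values was not tested. Crim1, a membrane protein that binds BMPs, averaged 20.7 ± 4.36 CPM over the mutants and 16.8 ± 2.06 CPM over the wild types, and Chrd 1.53 ± 0.34 CPM over the mutants and 0.89 ± 0.45 CPM over the wild types. Fstl1 had 300 counts in mutant 1 and 9 to 30 counts in the other 5 libraries.

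Among the other Smads and intracellular regulators, all 17 genes were tested, 4 with a log2 fold change above and 13 below 0. None passed, and the median was -0.12 with all libraries and -0.03 without mutant 1. Fkbp1a encodes the immunophilin that holds type I receptors inactive. It had 92.53, 92.55 and 89.1 CPM in mutants 1, 2 and 3, against 108, 105 and 99.9 CPM in wild types 1, 2 and 3, so the groups did not overlap. Its log2 fold change was -0.19 ± 0.07 (SE), with an edgeR adjusted p of 0.737. Bambi, a pseudoreceptor that dampens BMP and TGF-β signals, had 57.3, 80.6 and 65.5 CPM in mutants 1, 2 and 3, against 80.5, 86.6 and 81.7 CPM in wild types 1, 2 and 3. Mutant 2 lay just above wild type 1, and the log2 fold change was -0.29 with all libraries and -0.18 without mutant 1. Smad7, the other inhibitory Smad, had 31.3, 28.2 and 24.7 CPM in mutants 1, 2 and 3, against 31.5, 30.6 and 36.3 CPM in wild types 1, 2 and 3. Mutant 1 lay within the wild-type range and mutants 2 and 3 below it. Its log2 fold change was -0.22 ± 0.12 (SE) with all libraries and -0.31 (-0.60 to -0.02) without mutant 1, with edgeR adjusted p of 0.739 and 0.819, and 11.7% of all tested genes had mutants 2 and 3 below every wild type. The phosphatase gene Ppm1a averaged 83.6 ± 2.45 CPM over the mutants and 90.8 ± 0.61 CPM over the wild types without overlap, and the ubiquitin ligase gene Stub1 21.5 ± 2.10 CPM over the mutants and 26.5 ± 4.20 CPM over the wild types.

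Among the other target genes, 5 of 14 were tested, and their log2 fold changes moved with mutant 1, with a median of 2.21 with all libraries and -0.06 without it. Runx2 had 219 counts in mutant 1 and 5 to 23 counts in the other 5 libraries, and Hey1 65 counts in mutant 1 and 2 to 14 counts in the other 5. Zeb2, a transcription factor gene of mesenchymal and blood cells, had 17.7 CPM in mutant 1 and at most 1.83 CPM in the others, beside the fibroblast and leukocyte sums of mutant 1. The part of such cells in the Zeb2 value was not tested. Id4, the other family member, had 45, 39 and 23 counts in mutants 1, 2 and 3, against 4, 29 and 68 counts in wild types 1, 2 and 3.

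The E protein genes encode the binding partners of Id proteins. Tcf3 averaged 58.4 ± 3.43 CPM over the mutants and 57.5 ± 8.20 CPM over the wild types, and Tcf12 89.1 ± 4.68 CPM over the mutants and 89.9 ± 6.75 CPM over the wild types. Tcf4 had 25.1, 22.6 and 19.9 CPM in mutants 1, 2 and 3, against 17.3, 19.3 and 19.1 CPM in wild types 1, 2 and 3. Its groups did not overlap, with mutant 3 just above wild type 2, and its log2 fold change was 0.28 ± 0.11 (SE) with an edgeR adjusted p of 0.737.

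**Figure D4:**
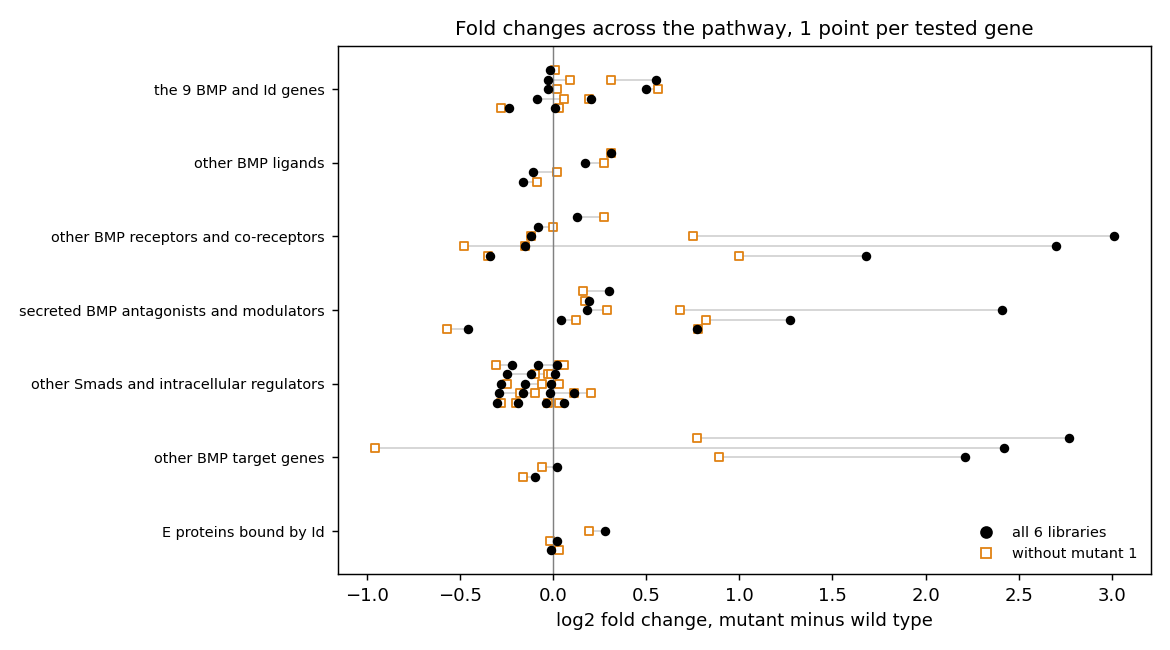
Log2 fold changes (mutant minus wild type) of the 9 members and of 45 tested genes in the 6 other role lists, 1 pair of points per gene, with all 6 libraries (black) and without mutant 1 (orange). The 6 genes beyond 2 with all libraries (Acvrl1, Eng, Fstl1, Hey1, Runx2 and Zeb2) lie between -0.96 and 0.89 without mutant 1.

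Library patterns of the 4 members with a ligand or Id role were compared with those of 9962 other genes at 5 CPM or more, by Pearson's r of log2 CPM over the 6 libraries. Fbxw4 was most like Bmp4 (r = 0.99), Csnk1g3 most like Id1 (0.99), Antxr1 most like Id2 (0.98) and Ep400 most like Id3 (0.99). Without mutant 1 the first genes were Klf2 for Bmp4, Kpna4 for Id1, Sdccag8 for Id2 and Ralgapa2 for Id3, each at 0.99 or above. The leading gene changed for all 4 members when 1 library was left out. With so many genes ranked over so few libraries, values near 1 arise for many genes, and no member of the set led another's ranking.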

How the data were processed

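Polyadenylated RNA of Tomato-sorted AT2 cells was sequenced from 3 mutant and 3 wild-type samples, all on 1 flow cell per the labels. The sources used here name more than 1 sequencer model, so the instrument is not settled. Whether each sample is its own animal is not stated, so p-values cover only the variation seen among these libraries. The deposited values were raw counts per gene symbol, 1 file per library. The submitters' processing notes name the build mm9 and the tools CASAVA and DESeq2. The sources used here do not give the aligner, counter, annotation or use of strand, so overlapping and antisense genes and paralogs can share reads.

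Genes were filtered by filterByExpr, which kept 99.65% or more of each library's counts, scaled by TMM and tested with edgeR 4.0.16 (R 4.3.3) by the quasi-likelihood F-test, two-sided, as mutant minus wild type. P-values were adjusted by Benjamini-Hochberg across the 12899 genes, with a threshold of 5%. Standard errors were derived from that test, as the absolute log2 fold change divided by the square root of F. The 95% intervals were built from them with the t-distribution at the test's total degrees of freedom. Gene values are TMM-normalised CPM, and marker values are CPM of the library total. A count of 0 allows up to 3 counts. This floor covers counting error only. The other settings tried were edgeR with upper-quartile scaling or with size factors of DESeq2, no filter, a filter of 1 CPM in 3 libraries, DESeq2 1.42.0, limma-voom 3.58.1 with quality weights, robust dispersion, the replicate block, and leaving out libraries. Replicate pairs differed by chi-square values of 18.4 to 76.7 per degree of freedom, so all counted as separate samples. Mutant and wild-type libraries of 1 number deviated from their group means with correlations of 0.31, 0.21 and 0.17, each above the 0.1 used as a rule. Libraries of unlike numbers were not compared, so these values do not show that the numbers paired the samples. The labels give no such pairing, and the main fit had no block.

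Members and gene lists were chosen with earlier results of these data known. The rule named all members, up to 4 genes per role list with the smallest p, list genes whose groups did not overlap, and the genes most alike in pattern. Nog, Cer1, Sostdc1 and Chrdl2 were named after their values were seen. Sequences and their coordinates are RefSeq's on GRCm38.p6 and were used for letters only.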

Additional observations from a re-analysis of the deposited data

How the results depend on the processing

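No member and no other pathway gene was called under any of the 16 alternatives. The number of genes called over all genes was 0 with all libraries in edgeR, 38 with DESeq2, 22 with DESeq2 when mutant 1 was left out (added after seeing the data), and 0 to 1 when each library was left out in turn, the 1 being without wild type 3. With the replicate number as a block (replicate block), 0 genes were called and no call changed. The log2 fold change of Id1 was then 0.51, with an edgeR p of 0.00715 unadjusted and 0.642 adjusted. Bmp4, Smad6, Id1 and Id3 kept their sign in 16 of 16 alternatives. Id1 ranged from 0.35 to 0.71, with an unadjusted p under 0.05 in 14 of the 16 and not without mutant 2 (0.0639) or mutant 3 (0.0528). Id3 ranged from 0.19 to 0.73. Bmp4 had an unadjusted edgeR p under 0.05 in 2 alternatives, both without wild type 2, with mutant 1 also left out in 1 of them. Smad6 and Id3 had such a p in 1 alternative each, without wild type 3 (0.0313 and 0.0452).

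The other 5 members, all near 0, changed sign under some alternatives. Without single libraries, log2 fold changes ran from -0.20 to 0.06 for Bmpr1a, -0.04 to 0.12 for Bmpr2, -0.12 to 0.09 for Smad1, -0.05 to 0.0082 for Smad5 and -0.18 to 0.06 for Id2. With limma-voom they were -0.02 for Bmpr2 and 0.01 for Smad1. Leaving out mutant 1 and wild type 2 together gave 0.07 for Bmpr1a, 0.16 for Smad1, 0.0067 for Smad5 and 0.02 for Id2, and moved the members' median to 0.15. DESeq2 leaving out mutant 1 gave 0.06 for Bmpr1a, 0.10 for Smad1, 0.01 for Smad5 and 0.03 for Id2. The cause was not tested. Id3 rested on 123 to 379 counts a library, the lowest of the 9 genes, and had the widest interval.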
